A study of Homo sapiens with 12 samples.

Results

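The genes described are 55 RNA polymerase I and ribosome assembly factors, taken by symbol from the 53717 genes of the deposited count table. They fall into 6 role classes: 7 genes of RNA polymerase I and its initiation factors, 5 nucleolar scaffold proteins and cofactors, 3 core proteins of box C/D ribonucleoproteins, 23 factors of the small subunit processome, 5 factors of the later small subunit precursor, and 12 large subunit factors. The libraries come from H9 cells, an established line of human embryonic stem cells, grown in RSeT, a medium made to hold such cells in a naive state. Cells were transfected by lipofection with 25 nM of a fluorescein-labelled oligonucleotide, and fluorescent cells were sorted 48 h later. The 3 groups of 4 libraries differ in that oligonucleotide: ASO-L1 is antisense to LINE1, a large family of retrotransposons, sO-L1 is its sense counterpart, and ASO-Ctr is an antisense oligonucleotide that targets nothing specific. All 3 groups also received 0.7 uM trans-ISRIB, 5 uM emricasan and 10 uM Y-27632, an inhibitor each of the integrated stress response, caspases and ROCK kinases, which were removed after 24 h. So no group shows untransfected cells or cells without these inhibitors, and the study uses 1 cell line. The comparison asks how transcripts of the nucleolar ribosome factory stood in cells given the LINE1 antisense oligonucleotide.

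Ribosomes are assembled in the nucleolus, where RNA polymerase I transcribes the long precursor of the ribosomal RNAs. The small subunit processome folds around the nascent precursor while box C/D ribonucleoproteins guide its modification and folding, and separate sets of factors then mature the small and the large subunit until both are exported to the cytoplasm. Pluripotent stem cells divide fast and keep large, active nucleoli, which puts a high demand on these factors.

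The promoters of the members were searched for short motifs shared by many growth genes, and those of several members with a match are shown. RefSeq promoters (GRCh38.p14) matched 44 of the 55 symbols. POLR1E, NOLC1, TCOF1, NOP58, MPHOSPH10, NOL10, RRP12, BOP1, RRP1B, RRS1 and DDX18 did not match. The first set of windows holds CCGGAAG, a core sequence bound by ETS factors, or its reverse complement CTTCCGG, and the second set holds CACGTG, the E-box bound by MYC and related factors. Each window is 60 bases long, lies within the 250 bases before the annotated start, reads 5′ to 3′ on the gene's strand, and has the motif in capitals.
POLR1B (chr2:112541883-112541942, plus strand): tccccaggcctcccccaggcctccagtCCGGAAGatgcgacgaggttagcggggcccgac
PWP2 (chr21:44107292-44107351, plus strand): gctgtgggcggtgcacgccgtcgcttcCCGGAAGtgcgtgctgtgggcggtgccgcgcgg
NIP7 (chr16:69339550-69339609, plus strand): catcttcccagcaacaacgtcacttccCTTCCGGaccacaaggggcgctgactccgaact
LTV1 (chr6:143843254-143843313, plus strand): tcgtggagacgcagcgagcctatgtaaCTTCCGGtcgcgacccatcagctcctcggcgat
DDX21 (chr10:68956083-68956142, plus strand): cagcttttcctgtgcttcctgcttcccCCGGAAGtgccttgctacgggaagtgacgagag
UTP14A, E-box (chrX:129905914-129905973, plus strand): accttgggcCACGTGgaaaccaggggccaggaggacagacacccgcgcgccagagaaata
UTP20, E-box (chr12:101280045-101280104, plus strand): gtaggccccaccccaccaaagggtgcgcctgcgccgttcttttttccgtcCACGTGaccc
POLR1B, PWP2, NIP7, LTV1 and UTP14A were higher in ASO-L1 cells and DDX21 and UTP20 were lower, so both motifs occur before genes of either direction. CCGGAAG occurred on either strand in 16 of the 44 promoters (36.4%), against 14.7% of 10856 promoters of tested genes and 8.82% of all 27305 promoters. Of the 26 promoters whose genes were higher in ASO-L1 than in ASO-Ctr, 11 held it, and of the other 18 members 5 did. In POLR1C and NOP16, matches on opposite strands overlapped. CACGTG occurred in 5 of 44 promoters (11.4%, against 8.79% and 6.49%), the 10-base palindrome of NRF1 in 4 (9.09%, against 1.84% and 1.13%) and that of BANP in 2 (4.55%, against 0.755% and 0.41%). CCAAT occurred in 16 (36.4%, against 34.5% and 33.0%). The split between genes that were higher and the other members was 13 of 26 and 3 of 18 for CCAAT, 4 and 1 for CACGTG, 2 and 2 for the palindrome of NRF1 and 0 and 2 for that of BANP, and it was not tested. A match describes these letters only, and binding was not measured.

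The libraries held 27.4 to 40.8 M counted reads in ASO-L1, 31.1 to 55.1 M in sO-L1 and 22.8 to 41.5 M in ASO-Ctr. Every member was read at least 340 times in every library, far above the floor of 3 counts (0.0534 to 0.128 CPM, the count of a gene scaled to library size). All 10 markers of human embryonic stem cells averaged above 1 CPM in every group, and their summed level was 7882 to 8159 CPM in ASO-L1, 8000 to 8553 in sO-L1 and 8051 to 8361 in ASO-Ctr. Of 8 naive state markers KLF17 averaged under 1 CPM, and the summed level was 116 to 158 CPM in ASO-L1, 85.0 to 112 in sO-L1 and 78.7 to 99.2 in ASO-Ctr. The 5 primed state markers in the table summed to 262 to 294 CPM in ASO-L1, 177 to 211 in sO-L1 and 193 to 235 in ASO-Ctr. Of 4 neuroectoderm markers SOX1 and ZIC1 averaged under 1 CPM, and the list summed to 527 to 603 CPM in ASO-L1, 424 to 528 in sO-L1 and 391 to 453 in ASO-Ctr. Of 6 primitive endoderm markers GATA4, GATA6, SOX17 and APOA1 averaged under 1 CPM, and the list summed to 9.58 to 12.1 CPM in ASO-L1, 17.7 to 20.8 in sO-L1 and 15.6 to 18.6 in ASO-Ctr. Of 8 fibroblast markers COL3A1, DCN, LUM and POSTN averaged under 1 CPM. The fibroblast list summed to 123 to 144 CPM in ASO-L1, 121 to 150 in sO-L1 and 132 to 157 in ASO-Ctr. Only GATA2 of 6 trophectoderm markers averaged above 1 CPM. That list summed to 3.08 to 4.14 CPM in ASO-L1, 1.44 to 3.21 in sO-L1 and 1.64 to 3.42 in ASO-Ctr. Members of a list could differ from its sum: among naive markers KLF4 had 38.5 to 59.4 CPM in ASO-L1, 17.9 to 25.7 in sO-L1 and 15.8 to 22.9 in ASO-Ctr, while DPPA5 had 2.92 to 4.02 CPM in ASO-L1, 4.79 to 12.05 in sO-L1 and 5.47 to 12.1 in ASO-Ctr. The primitive endoderm sum was mostly PDGFRA, with 7.42 to 9.18 CPM in ASO-L1, 16.8 to 18.98 in sO-L1 and 15.03 to 16.2 in ASO-Ctr, and FOXA2 had 1.65 to 3.47 CPM in ASO-L1, 0.372 to 2.59 in sO-L1 and 0.342 to 2.39 in ASO-Ctr. The neuroectoderm sum was mostly NES, with 524 to 601 CPM in ASO-L1, 423 to 526 in sO-L1 and 390 to 451 in ASO-Ctr. Among fibroblast markers COL1A2 had 31.7 to 41.9 CPM in ASO-L1, 48.4 to 69.2 in sO-L1 and 53.5 to 69.6 in ASO-Ctr. THY1, on both the fibroblast and primed lists, had 64.5 to 77.4 CPM in ASO-L1, 44.1 to 52.0 in sO-L1 and 53.5 to 56.0 in ASO-Ctr. The part of these shifts in the results below was not tested. In such bulk samples fewer cells of a type and less RNA per cell cannot be told apart. No row counts LINE1 itself, so the knockdown could not be checked, and the labels do not say whether replicates came from separate cultures, so p-values measure only the spread between these libraries.

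Most ribosome assembly transcripts were modestly higher after the LINE1 antisense oligonucleotide. Against ASO-Ctr, 33 of the 55 members rose in ASO-L1 cells, 4 fell and 18 did not pass the test (edgeR's quasi-likelihood test, Benjamini-Hochberg adjusted p under 0.05 over 17264 genes). Over all genes tested, 21.2% were called higher and 23.1% lower, and among the 8505 genes with mean levels in the members' range 27.6% were higher and 29.6% lower. The members' median log2 fold change was 0.17, beside -0.00 for all genes tested. The changes were small: the 33 that rose did so by 1.08 to 1.43-fold, the 4 that fell were 1.24 to 1.46-fold lower, and 0 members passed 1.5-fold. All 4 ASO-L1 libraries lay above all 4 ASO-Ctr libraries for 27 members (16.3% of all genes) and below them for 5 (17% of all genes), which are the 4 that fell and TBL3. Summed over the members, reads came to 10870 to 11644 CPM in ASO-L1, against 9852 to 10805 CPM in ASO-Ctr, or 1.1% to 1.15% against 0.995% to 1.06% of the library, so every ASO-L1 library lay above every ASO-Ctr library.

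**Figure D1:**
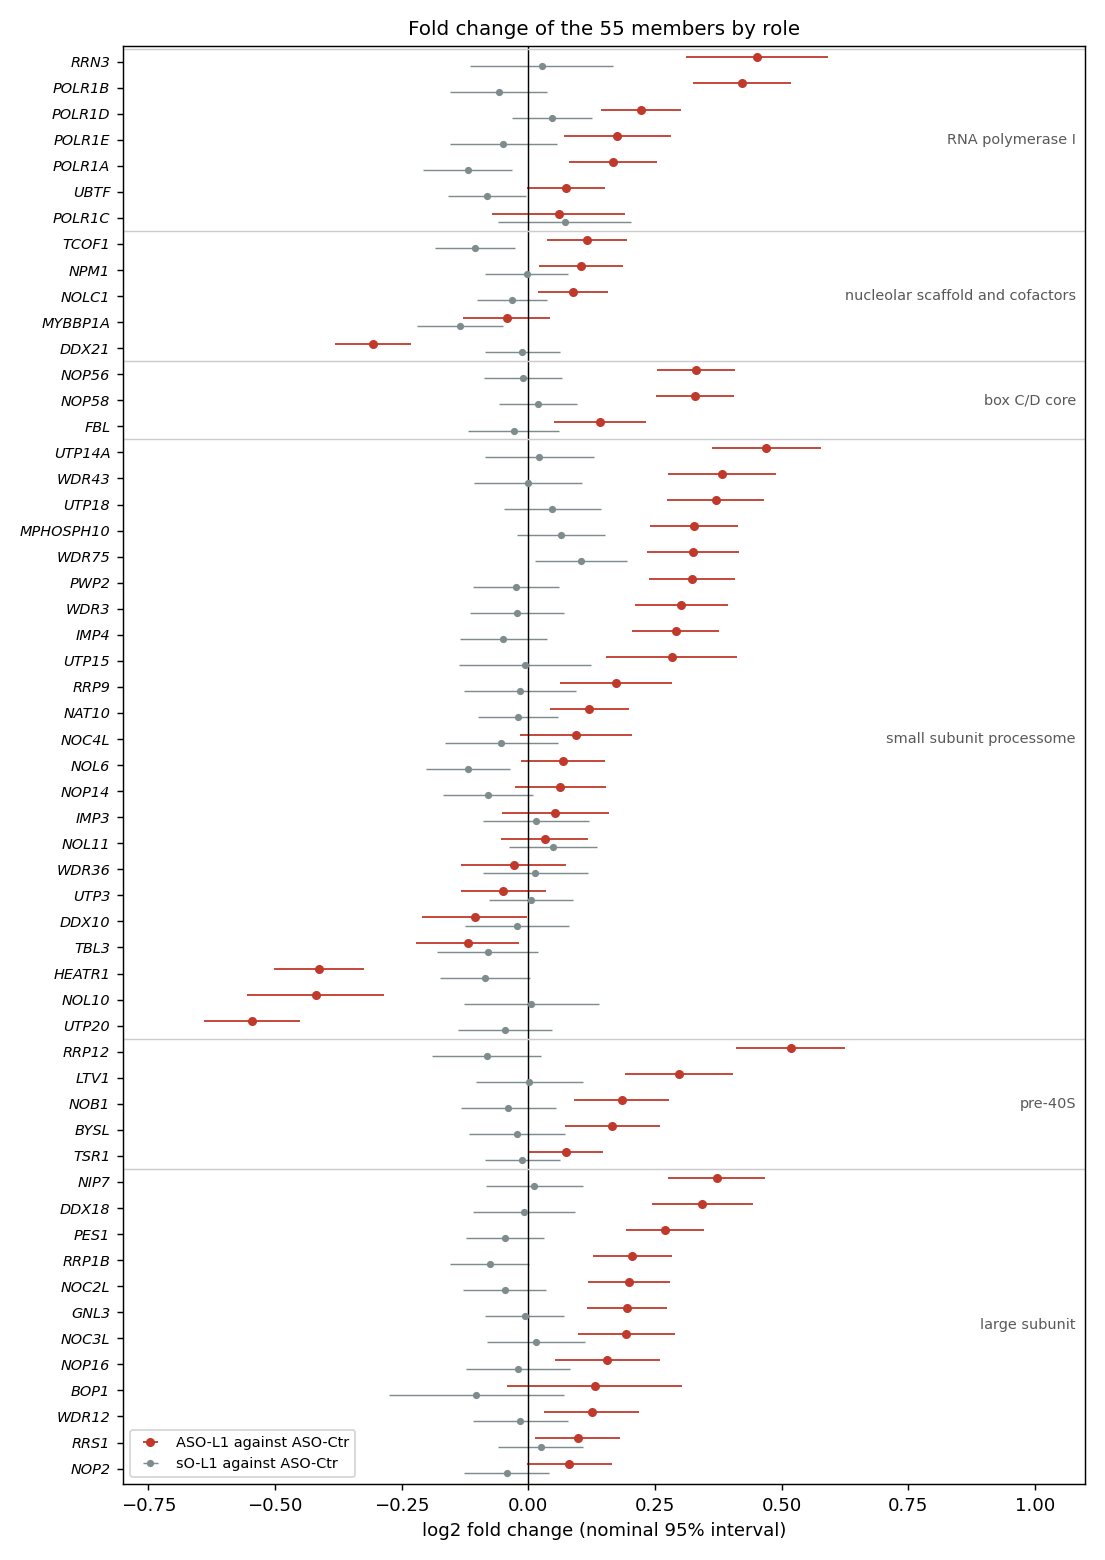
Log2 fold change of each of the 55 members, grouped by role class, in ASO-L1 against ASO-Ctr (red) and in sO-L1 against ASO-Ctr (grey), with nominal 95% intervals. The red points run from -0.55 (UTP20) to 0.52 (RRP12) with most above 0, while the grey points stay between -0.13 and 0.10.

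Against sO-L1, 41 members rose in ASO-L1 cells, 4 fell and 10 did not pass the test, beside 21.1% of all genes called higher and 22.9% lower. The median log2 fold change of the members was 0.19, beside -0.00 for all genes, and the folds of those that rose were 1.08 to 1.52. The 4 members that fell against sO-L1 are UTP20, HEATR1, NOL10 and DDX21, which are also the 4 that fell against ASO-Ctr. The ASO-L1 libraries lay above all sO-L1 libraries for 33 members (16% of all genes) and below them for 4 (16.2% of all genes). Both comparisons use the same ASO-L1 libraries, so they are given side by side and neither is a repeat of the other. In the authors' deposited table of this contrast, 39 of the 55 members were higher and 4 lower at an adjusted p under 0.05.

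The sense oligonucleotide left these genes close to the non-targeting control. In sO-L1 against ASO-Ctr, 0 members rose and 0 fell in edgeR's test with all 12 libraries, where 0.0695% of all genes were called higher and 0.22% lower. DESeq2 and limma also called 0. At an unadjusted p under 0.05, WDR75 was higher and POLR1A, TCOF1, MYBBP1A and NOL6 were lower in sO-L1, and a fit on only the 8 libraries of these groups called the same 5 genes. The median log2 fold change was -0.02, with a range of -0.13 to 0.10. No member lay above ASO-Ctr in all 4 sO-L1 libraries (1.24% of all genes), and MYBBP1A and TCOF1 lay below it in all 4 (1.99% of all genes). TCOF1 had 280.5, 309, 311 and 307 CPM in sO-L1 and 331, 311, 328 and 328 CPM in ASO-Ctr. MYBBP1A, a nucleolar protein that binds Myb and RNA polymerase I factors, had 120.3, 141, 140.3 and 142 CPM in sO-L1 and 143, 146, 154 and 152 CPM in ASO-Ctr. In both genes sO-L1 replicate 1 was the lowest of its group.

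Transcripts for RNA polymerase I itself were mostly raised. Of the 7 genes 5 rose in ASO-L1 against ASO-Ctr, none fell, and UBTF and POLR1C did not pass the test. Against sO-L1, 6 rose and only POLR1C did not pass. Shares over all genes were 21.2% higher and 23.1% lower against ASO-Ctr, and 21.1% and 22.9% against sO-L1. The summed level of the 7 was 800 to 855 CPM in ASO-L1, 665 to 717 CPM in sO-L1 and 681 to 740 CPM in ASO-Ctr.

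POLR1B encodes the second-largest subunit, which forms the catalytic centre with POLR1A. POLR1B had 144, 135, 150.1 and 139 CPM in the ASO-L1 libraries, 99.7, 98.3, 100.3 and 109 CPM in sO-L1 and 98.04, 104, 108 and 115 CPM in ASO-Ctr (replicates 1 to 4). The lowest ASO-L1 library stood above the highest of the other 8. POLR1B averaged 142 ± 6.61 CPM in ASO-L1 and 106 ± 7.16 CPM in ASO-Ctr (SD, n = 4 each), a log2 fold change of 0.42 ± 0.05 (SE) with an adjusted p of 3.43e-06, and against sO-L1 it was 0.48 ± 0.05 with an adjusted p of 8.53e-07.

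RRN3 encodes the factor that makes the polymerase competent to start at ribosomal DNA and is regulated by growth signals. RRN3 had 136, 101, 112 and 102 CPM in ASO-L1, 83.9, 76.9, 85.8 and 88.4 CPM in sO-L1 and 75.97, 79.9, 86.3 and 85.8 CPM in ASO-Ctr. The groups did not overlap, and ASO-L1 replicate 1 was the highest library. Its log2 fold change was 0.45 ± 0.07 against ASO-Ctr (adjusted p 8.08e-05) and 0.43 ± 0.07 against sO-L1 (adjusted p 0.000138).

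POLR1A, the largest subunit, differed less but with little spread. POLR1A had 173, 176, 173 and 172 CPM in ASO-L1, 129, 144, 154 and 143 CPM in sO-L1 and 141, 161, 160.4 and 157 CPM in ASO-Ctr. The 4 ASO-L1 libraries were nearly equal and all above the others. The log2 fold change of POLR1A was 0.17 against ASO-Ctr (adjusted p 0.00577) and 0.29 against sO-L1 (adjusted p 6.72e-05).

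POLR1D and POLR1C are subunits shared with RNA polymerase III. POLR1D rose to 130.1, 122, 127 and 127 CPM in ASO-L1, against 115, 106, 115 and 112 CPM in sO-L1 and 113, 101, 110.0 and 111 CPM in ASO-Ctr, with a log2 fold change of 0.22 against ASO-Ctr (adjusted p 0.000275) and 0.17 against sO-L1 (adjusted p 0.00199). POLR1C had 33.3, 37.1, 43.1 and 46.8 CPM in ASO-L1, 41.99, 36.8, 40.6 and 41.5 CPM in sO-L1 and 35.5, 35.5, 39.7 and 42.9 CPM in ASO-Ctr, so the groups overlapped throughout. Its fold in ASO-L1 over ASO-Ctr was 1.04, with a nominal 95% interval of 0.951 to 1.14 (adjusted p 0.5). POLR1C averaged 40.1 ± 6.04 CPM in ASO-L1 and 38.4 ± 3.57 CPM in ASO-Ctr (SD, n = 4 each), with its lowest ASO-L1 value in replicate 1.

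POLR1E, a subunit of the heterodimer that helps the polymerase initiate, had 41.5, 41.6, 42.9 and 39.03 CPM in ASO-L1, 33.2, 35.9, 35.9 and 36.2 CPM in sO-L1 and 35.3, 35.2, 37.8 and 37.8 CPM in ASO-Ctr. Its log2 fold change was 0.18 against ASO-Ctr (adjusted p 0.0136) and 0.22 against sO-L1 (adjusted p 0.00264). The call against ASO-Ctr was lost without replicate number 2, without replicate number 3 or without ASO-Ctr replicate 2, with an adjusted p of up to 0.0937. UBTF, the architectural factor that coats active ribosomal DNA, had 188, 187, 206 and 199 CPM in ASO-L1, 162, 173, 185 and 182 CPM in sO-L1 and 183, 178, 192 and 191 CPM in ASO-Ctr. UBTF passed the test against sO-L1 (log2 fold change 0.16, adjusted p 0.00396), while against ASO-Ctr its fold was 1.05 with a nominal interval of 0.998 to 1.11 (adjusted p 0.141).

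**Figure D2:**
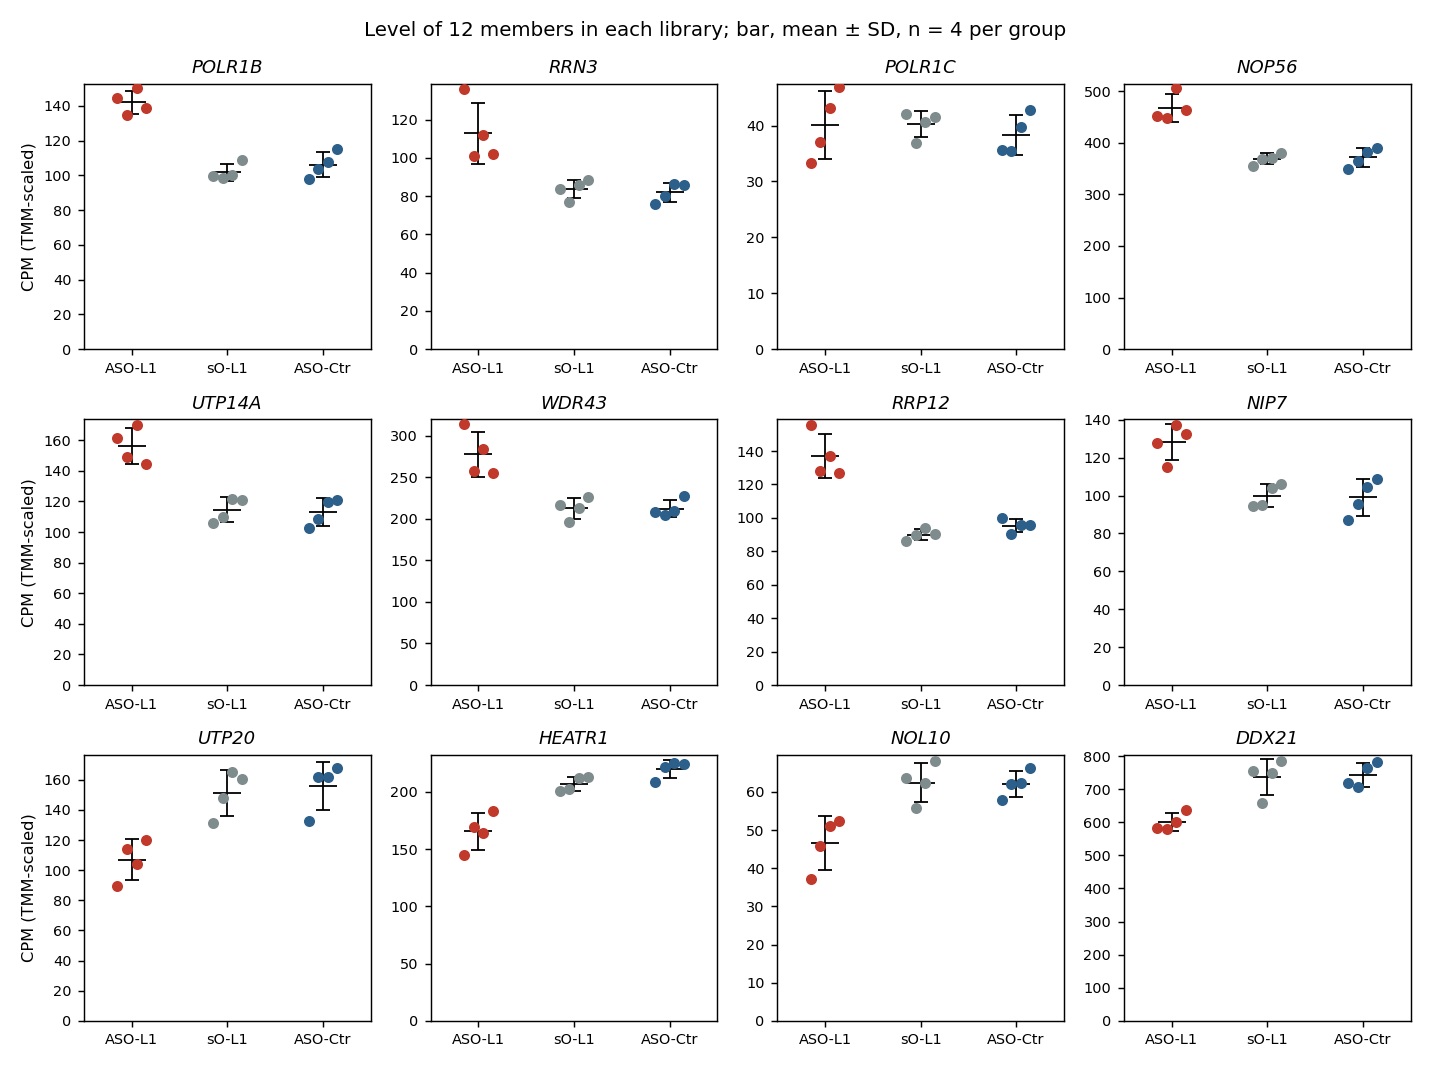
Level (TMM-scaled CPM, axis from 0) of 12 members in each of the 12 libraries, by group, with points for libraries and bars for mean ± SD (n = 4). POLR1B, RRN3, NOP56, UTP14A, WDR43, RRP12 and NIP7 lie higher in every ASO-L1 library than in any other, POLR1C overlaps between groups, and UTP20, HEATR1, NOL10 and DDX21 lie lower in every ASO-L1 library.

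Of the 5 nucleolar scaffold proteins and cofactors 1 rose and 1 fell against ASO-Ctr, shares near those of all genes (21.2% higher and 23.1% lower). Against ASO-Ctr, TCOF1 rose, DDX21 fell, and NPM1, NOLC1 and MYBBP1A did not pass the test. Against sO-L1, TCOF1, NOLC1 and NPM1 rose and DDX21 fell. Their summed level, most of it NPM1, was 3769 to 4213 CPM in ASO-L1, 3639 to 4013 CPM in sO-L1 and 3751 to 4190 CPM in ASO-Ctr, ranges that overlap.

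DDX21 encodes an RNA helicase of the nucleolus that binds ribosomal DNA and small nucleolar RNAs. DDX21 had 583, 579.7, 599.5 and 638 CPM in ASO-L1, 755, 659, 749.6 and 784 CPM in sO-L1 and 717, 707, 762 and 783 CPM in ASO-Ctr. Every ASO-L1 library was below every other library. DDX21 averaged 600.1 ± 26.98 CPM in ASO-L1 and 742 ± 36.02 CPM in ASO-Ctr (SD, n = 4 each), 1.24-fold lower in ASO-L1 (log2 fold change -0.31 ± 0.04 SE, adjusted p 6.97e-06), and 1.23-fold lower than in sO-L1 (adjusted p 1.06e-05).

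NPM1, an abundant histone chaperone of the granular outer layer of the nucleolus, had 2242, 2445, 2598 and 2560.5 CPM in ASO-L1, 2376, 2115, 2317 and 2329.7 CPM in sO-L1 and 2201, 2151, 2356 and 2455 CPM in ASO-Ctr. The groups overlapped, and ASO-L1 replicate 1 was the lowest of its group. The fold of NPM1 over ASO-Ctr was 1.07 with a nominal 95% interval of 1.02 to 1.14 (adjusted p 0.0527). Over sO-L1 the fold was 1.08, which passed narrowly (adjusted p 0.0476). Without the replicate block that p was 0.170, and the call was lost in 9 of 12 refits that left out a replicate number or library, all but those without replicate number 1, ASO-L1 replicate 1 or sO-L1 replicate 1 (adjusted p of up to 0.295). NOLC1, a chaperone of small nucleolar ribonucleoproteins, averaged 478 ± 24.8 CPM in ASO-L1 and 439 ± 16.9 CPM in sO-L1 (SD, n = 4 each), with an adjusted p of 0.0105 that was 0.0748 without the block. The NOLC1 call was lost without replicate number 2, 3 or 4, ASO-L1 replicate 3 or sO-L1 replicate 2 (adjusted p of up to 0.0812). TCOF1, which encodes treacle, the scaffold of the fibrillar centres, had 348, 343, 359.9 and 356 CPM in ASO-L1, with its sO-L1 and ASO-Ctr values given above. Its log2 fold change was 0.22 over sO-L1 (adjusted p 0.000319) and 0.12 over ASO-Ctr (adjusted p 0.0278). Without the block the second p was 0.0627, and the call against ASO-Ctr was lost in 9 of 12 refits, those without replicate number 2, 3 or 4, ASO-L1 replicate 2, 3 or 4, or ASO-Ctr replicate 2, 3 or 4 (adjusted p of up to 0.148).

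All 3 box C/D core proteins rose in both comparisons, beside 21.2% of all genes against ASO-Ctr and 21.1% against sO-L1. These proteins carry the guide RNAs that direct ribose methylation of ribosomal RNA, and the U3 particle of the processome is built on them. The 3 summed to 1154 to 1271 CPM in ASO-L1, 962 to 1023 CPM in sO-L1 and 941 to 1046 CPM in ASO-Ctr. NOP56 had 452, 448, 507 and 464 CPM in ASO-L1, 355, 368, 371 and 381 CPM in sO-L1 and 349.6, 365, 382 and 390.3 CPM in ASO-Ctr. NOP58, its partner, had 391, 363, 399 and 388 CPM in ASO-L1, 307, 288, 318 and 329.8 CPM in sO-L1 and 290.0, 283, 326 and 329 CPM in ASO-Ctr. For both genes the lowest ASO-L1 library exceeded the highest of the other groups. The log2 fold change of NOP56 was 0.33 ± 0.04 (SE) against ASO-Ctr (adjusted p 4.23e-06) and 0.34 ± 0.04 against sO-L1 (adjusted p 3.03e-06). For NOP58 it was 0.33 ± 0.04 against ASO-Ctr (adjusted p 5.01e-06) and 0.31 ± 0.04 against sO-L1 (adjusted p 9.12e-06).

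FBL, the methyltransferase of the complex, changed less. FBL had 327, 344, 366 and 374 CPM in ASO-L1, 324, 306, 312 and 312 CPM in sO-L1 and 337, 293, 323 and 327 CPM in ASO-Ctr, so ASO-L1 replicate 1 lay within the range of ASO-Ctr. The log2 fold change of FBL was 0.14 against ASO-Ctr (adjusted p 0.0195) and 0.17 against sO-L1 (adjusted p 0.00638). The first call had an adjusted p of 0.0563 without the block and was lost in 8 of 12 refits, those without replicate number 2, 3 or 4, ASO-L1 replicate 2, 3 or 4, or ASO-Ctr replicate 2 or 3 (adjusted p of up to 0.155). The second was lost without replicate number 3 (adjusted p 0.0717).

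Genes of the small subunit processome moved in both directions. The class holds 23 of the 55 members and 3 of the 4 that fell. Of 23 members, 11 rose in ASO-L1 against ASO-Ctr, 3 fell and 9 did not pass the test, with a median log2 fold change of 0.09. Against sO-L1, 14 rose, 3 fell and 6 did not pass, with a median of 0.15. Shares over all genes were 21.2% higher and 23.1% lower against ASO-Ctr, and 21.1% and 22.9% against sO-L1. Against ASO-Ctr, only UTP-A and the 7 other processome factors held members called in both directions. In UTP-A, which binds the precursor first, 3 of 5 rose and HEATR1 fell; in UTP-B 3 of 5 rose; in the MPP10 complex 2 of 4 rose; and the U3-specific protein RRP9 rose. Among the 7 other processome factors 2 rose and 2 fell. The RRP9 call against ASO-Ctr (log2 fold change 0.17, adjusted p 0.0199) was lost in 7 of 12 refits, those without replicate number 2 or 3, ASO-L1 replicate 2, 3 or 4, or ASO-Ctr replicate 2 or 3 (adjusted p of up to 0.159). Against sO-L1 it was lost in 7 of 12 as well, those without replicate number 2, 3 or 4, ASO-L1 replicate 2 or 3, or sO-L1 replicate 2 or 4 (adjusted p of up to 0.0997). The class summed to 2673 to 2843 CPM in ASO-L1, 2448 to 2642 CPM in sO-L1 and 2468 to 2683 CPM in ASO-Ctr, so ASO-L1 overlapped ASO-Ctr.

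UTP14A, which partners the helicase that releases U3 from the precursor, had 162, 149, 170.2 and 145 CPM in ASO-L1, 106, 110.1, 122 and 121 CPM in sO-L1 and 102, 108, 119.8 and 121 CPM in ASO-Ctr. The groups did not overlap. The log2 fold change of UTP14A was 0.47 ± 0.05 (SE) against ASO-Ctr (adjusted p 3.55e-06) and 0.45 ± 0.05 against sO-L1 (adjusted p 5.63e-06). UTP14C, a copy of UTP14A that lies on another chromosome and lacks introns, was counted separately at 53.4 ± 2.57 CPM in ASO-L1, 54.1 ± 4.05 CPM in sO-L1 and 54.4 ± 2.69 CPM in ASO-Ctr (SD, n = 4 each), with a log2 fold change of -0.03 against ASO-Ctr (adjusted p 0.754).

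UTP18 and PWP2 belong to UTP-B, which joins the U3 particle to the processome. UTP18 had 158, 140.0, 152 and 143 CPM in ASO-L1, 116, 112, 118 and 129 CPM in sO-L1 and 111, 109, 120.1 and 119 CPM in ASO-Ctr. PWP2 had 102, 95.6, 104 and 98.8 CPM in ASO-L1, 78.9, 78.4, 77.6 and 79.3 CPM in sO-L1 and 80.5, 76.8, 80.9 and 81.5 CPM in ASO-Ctr. In both genes every ASO-L1 library was above the other 8, and the sO-L1 and ASO-Ctr libraries overlapped. Against ASO-Ctr the log2 fold change was 0.37 for UTP18 (adjusted p 1.26e-05) and 0.32 for PWP2 (adjusted p 1.52e-05). Of the other UTP-B members, WDR3 rose by a log2 fold change of 0.30 (adjusted p 6.88e-05), while WDR36 (-0.03, adjusted p 0.691) and TBL3 (-0.12, adjusted p 0.0695) did not pass. TBL3 had 58.5, 63.2, 61.98 and 64.6 CPM in ASO-L1 and 70.7, 67.5, 66.2 and 65.8 CPM in ASO-Ctr, below in every library although the test was not passed.

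In UTP-A, WDR43 had 313, 257, 284 and 256 CPM in ASO-L1, 216, 196, 213 and 226 CPM in sO-L1 and 208, 204, 209.7 and 227 CPM in ASO-Ctr, a log2 fold change of 0.38 over ASO-Ctr (adjusted p 2.82e-05). WDR75 averaged 210.4 ± 8.11 CPM in ASO-L1, 181 ± 6.52 CPM in sO-L1 and 168 ± 11.9 CPM in ASO-Ctr, and UTP15 averaged 72.1 ± 7.71 CPM in ASO-L1, 59.1 ± 6.25 CPM in sO-L1 and 59.1 ± 3.46 CPM in ASO-Ctr (SD, n = 4 each). All 3 rose against both other groups, but NOL11, with 233 to 241 CPM in ASO-L1, 222 to 257 CPM in sO-L1 and 222 to 243 CPM in ASO-Ctr, did not pass either test. In the MPP10 complex, MPHOSPH10, its scaffold, rose by a log2 fold change of 0.33 (adjusted p 1.82e-05) and IMP4 by 0.29 (adjusted p 5.05e-05) against ASO-Ctr. IMP4 had 111, 104, 115 and 111 CPM in ASO-L1, 89.2, 84.9, 86.2 and 86.7 CPM in sO-L1 and 88.8, 87.7, 88.3 and 94.3 CPM in ASO-Ctr. Its complex partners IMP3 and UTP3 did not pass in either comparison, with log2 fold changes against ASO-Ctr of 0.05 and -0.05.

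UTP20, HEATR1 and NOL10 were the processome members that fell. TBL3, DDX10, UTP3 and WDR36 also had estimates below 0 against ASO-Ctr but did not pass the test. UTP20 is a very long scaffold protein that wraps the maturing small subunit. UTP20 had 89.5, 114, 104 and 120.2 CPM in ASO-L1, 131, 148, 165 and 160.2 CPM in sO-L1 and 132, 162, 162 and 168 CPM in ASO-Ctr. The highest ASO-L1 library was below the lowest of the others, and replicate 1 was lowest in all 3 groups. UTP20 averaged 107 ± 13.4 CPM in ASO-L1 and 156 ± 15.98 CPM in ASO-Ctr (SD, n = 4 each), 1.46-fold lower (log2 fold change -0.55 ± 0.05 SE, adjusted p 1.89e-07), and it was 1.41-fold lower than in sO-L1 (adjusted p 4.89e-07).

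HEATR1, the long helical-repeat scaffold of UTP-A, which is also needed for transcription of ribosomal DNA, had 145, 169, 164 and 184 CPM in ASO-L1, 201, 203, 212 and 213 CPM in sO-L1 and 208, 222, 225 and 225 CPM in ASO-Ctr. ASO-L1 lay below both groups in every library. HEATR1 was 1.33-fold lower than in ASO-Ctr (log2 fold change -0.41 ± 0.05 SE, adjusted p 2.03e-06) and 1.26-fold lower than in sO-L1 (adjusted p 2.15e-05). NOL10, the human relative of a yeast processome protein, had 37.1, 45.96, 51.1 and 52.5 CPM in ASO-L1, 63.6, 55.9, 62.4 and 68.1 CPM in sO-L1 and 58.003, 62.01, 62.5 and 66.3 CPM in ASO-Ctr. Replicate 1 was again the lowest ASO-L1 library, and the groups did not overlap. NOL10 was 1.34-fold lower than in ASO-Ctr (adjusted p 0.000114) and 1.34-fold lower than in sO-L1 (adjusted p 9.76e-05).

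Factors of the later small subunit precursor rose in 4 of 5 cases against both groups, and TSR1 did not pass either test. Over all genes, 21.2% were called higher against ASO-Ctr and 21.1% against sO-L1. RRP12 had the largest rise of the 55 members in both comparisons, and its yeast relative is needed for export of ribosomal subunits. RRP12 had 155, 128, 137 and 127 CPM in ASO-L1, 85.9, 89.9, 93.8 and 90.3 CPM in sO-L1 and 99.9, 90.4, 95.6 and 95.7 CPM in ASO-Ctr. Every ASO-L1 library exceeded every other, by a wide margin in replicate 1. RRP12 averaged 137 ± 13.1 CPM in ASO-L1 and 95.4 ± 3.89 CPM in ASO-Ctr (SD, n = 4 each), 1.43-fold higher (log2 fold change 0.52 ± 0.05 SE, adjusted p 1.24e-06). Against sO-L1 it was 1.52-fold higher (adjusted p 2.8e-07), the only member past 1.5-fold in any comparison.

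LTV1, an assembly factor that leaves the small subunit before it matures, had 115, 104, 115 and 110.3 CPM in ASO-L1, 87.1, 82.7, 90.9 and 103 CPM in sO-L1 and 82.9, 87.6, 97.4 and 94.2 CPM in ASO-Ctr, with a log2 fold change of 0.30 against ASO-Ctr (adjusted p 0.000289). NOB1, the endonuclease that makes the final cut of the small subunit RNA, had 63.4, 62.2, 62.1 and 65.4 CPM in ASO-L1, 54.98, 51.7, 54.3 and 56.000 CPM in sO-L1 and 59.03, 50.5, 56.8 and 56.9 CPM in ASO-Ctr. Both genes were higher in every ASO-L1 library. The log2 fold change of NOB1 was 0.18 against ASO-Ctr (adjusted p 0.00497), and without replicate number 2 its adjusted p was 0.0729. The class summed to 518 to 557 CPM in ASO-L1, 428 to 467 CPM in sO-L1 and 434 to 468 CPM in ASO-Ctr.

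The large subunit factors moved in 1 direction. Of 12 members 9 rose and 0 fell in ASO-L1 against ASO-Ctr, and 11 rose and 0 fell against sO-L1, with median log2 fold changes of 0.19 and 0.22. All 12 estimates were above 0 in both comparisons. Shares over all genes were 21.2% higher and 23.1% lower against ASO-Ctr, and 21.1% and 22.9% against sO-L1. The class summed to 1763 to 1925 CPM in ASO-L1, 1480 to 1616 CPM in sO-L1 and 1512 to 1680 CPM in ASO-Ctr, so every ASO-L1 library was above all others.

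NIP7, whose yeast relative acts in large subunit assembly, had 128, 115, 137 and 132 CPM in ASO-L1, 94.5, 94.9, 104 and 106 CPM in sO-L1 and 87.3, 95.5, 105 and 109 CPM in ASO-Ctr, a log2 fold change of 0.37 ± 0.05 (SE) against ASO-Ctr (adjusted p 1.15e-05). DDX18, a nucleolar RNA helicase, had 404, 344, 368 and 359 CPM in ASO-L1, 284, 271, 296 and 306 CPM in sO-L1 and 268, 281, 301 and 313 CPM in ASO-Ctr, a log2 fold change of 0.34 ± 0.05 (adjusted p 4.38e-05). Neither gene overlapped between ASO-L1 and the other groups.

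PES1, BOP1 and WDR12 form the PeBoW complex, which is needed to process the large subunit RNAs. PES1 had 223, 201, 228 and 219 CPM in ASO-L1, 176, 167, 179 and 177 CPM in sO-L1 and 189, 166, 182 and 186 CPM in ASO-Ctr, a log2 fold change of 0.27 ± 0.04 (adjusted p 3.22e-05). WDR12 had 0.13 ± 0.05 against ASO-Ctr (adjusted p 0.0434). The WDR12 call had an adjusted p of 0.0683 without the block and was lost in 7 of 12 refits, those without replicate number 2 or 3, ASO-L1 replicate 2 or 3, or ASO-Ctr replicate 1, 2 or 3 (adjusted p of up to 0.233). BOP1, the least counted member, had 12.5, 15.4, 15.1 and 16.6 CPM in ASO-L1, 13.2, 12.02, 13.6 and 12.005 CPM in sO-L1 and 14.5, 12.9, 13.3 and 13.96 CPM in ASO-Ctr, and its fold over ASO-Ctr was 1.1 with a nominal interval of 0.972 to 1.23 (adjusted p 0.244). Over sO-L1 BOP1 was called (adjusted p 0.0394), but that call was lost in 8 of 12 refits (adjusted p of up to 0.214). The WDR12 call over sO-L1 (adjusted p 0.0246) was lost in 6 of 12 (adjusted p of up to 0.201). Whether the 3 genes differed from each other was not tested.

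RRP1B, a nucleolar protein of large subunit precursors, had 251, 235, 256 and 248 CPM in ASO-L1, 199, 193, 210.2 and 214 CPM in sO-L1 and 202, 208, 224 and 226 CPM in ASO-Ctr, with log2 fold changes of 0.21 (adjusted p 0.000511) against ASO-Ctr and 0.28 (adjusted p 2.64e-05) against sO-L1. GNL3, the GTPase nucleostemin known from stem cells, averaged 271 ± 10.5 CPM in ASO-L1, 235 ± 10.5 CPM in sO-L1 and 236 ± 11.2 CPM in ASO-Ctr (SD, n = 4 each) and rose against both. NOC2L and NOC3L, relatives of yeast large subunit export factors, had log2 fold changes of 0.20 (adjusted p 0.00096) and 0.19 (adjusted p 0.00404) against ASO-Ctr. RRS1 did not pass in either comparison, and NOP2, a methyltransferase of the large subunit RNA, did not pass against ASO-Ctr (0.08, adjusted p 0.135). Calls against sO-L1 were lost in 8 of 12 refits for NOP2 (adjusted p of up to 0.127) and in 5 for NOP16 (up to 0.103).

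Among the members called, the direction held for most within the replicate numbers, which were shared between groups, but the size did not. These members were called by a test on the same libraries, so agreement between pairs is no separate support. Of the 33 members that rose against ASO-Ctr, 31 were higher in all 4 pairs of libraries with the same number, and FBL and WDR12 in 3. All 4 that fell were lower in all 4 pairs. For the 33, the median log2 difference was 0.32, 0.25, 0.29 and 0.19 in replicates 1 to 4. It was largest in replicate 1 for 18 of the 33 and smallest in replicate 4 for 24. Over all 55 members the medians were 0.13, 0.19, 0.19 and 0.13. Replicate 1 held the highest difference for 21 of the 55 and the lowest for 21. The 4 that fell had median differences of -0.55, -0.41, -0.40 and -0.32. RRN3 differed most in a single pair against ASO-Ctr, by 0.84 in replicate 1. Against sO-L1, 36 of the 41 members that rose were higher in all 4 pairs. NPM1, UTP15, RRP9, NOC4L and BOP1 were higher in 3. The 4 members that fell against sO-L1 were lower in all 4 pairs.

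**Figure D3:**
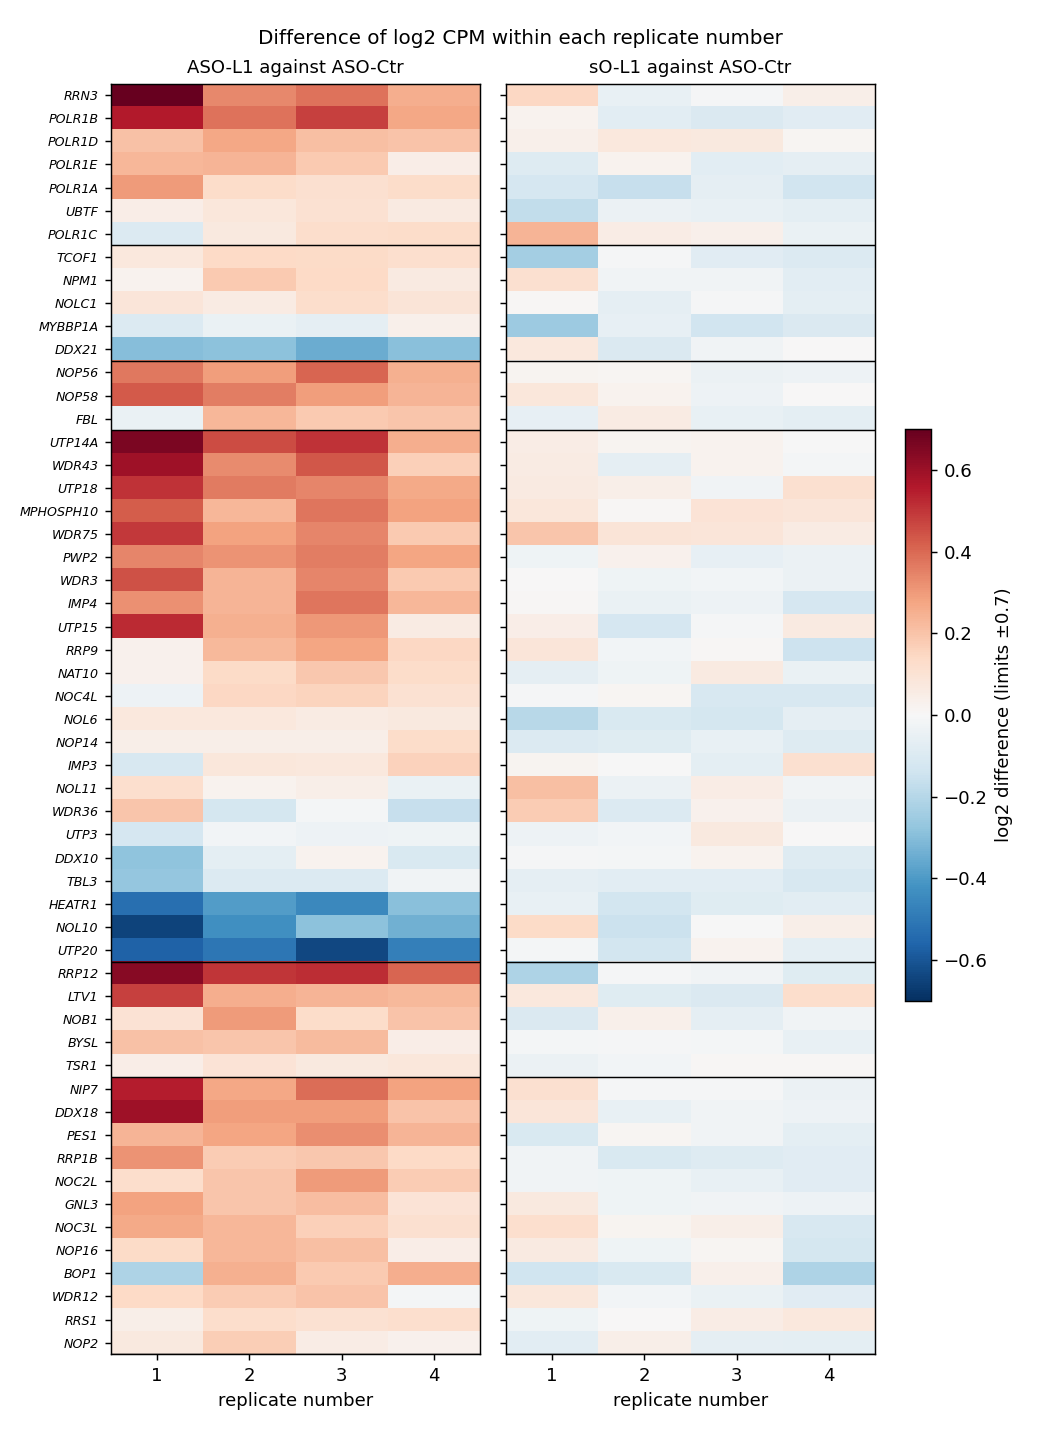
Difference of log2 CPM between libraries of the same replicate number, for each member (rows, in the order of the role classes), in ASO-L1 against ASO-Ctr (left) and sO-L1 against ASO-Ctr (right), with colours limited at ±0.7. Red rows are higher and blue rows lower in the group named first, replicate 4 is the palest column on the left, and UTP20, HEATR1, NOL10 and DDX21 are blue in all 4 columns.

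Among other genes of the pathway more rose than fell. In a list of 90 further assembly, nucleolar and RNA polymerase I genes, 54 rose, 7 fell and 29 did not pass in ASO-L1 against ASO-Ctr, with a median log2 fold change of 0.17, and 51 rose, 7 fell and 32 did not pass against sO-L1. Over all genes tested, 21.2% were called higher and 23.1% lower against ASO-Ctr, and 21.1% and 22.9% against sO-L1. None of the 90 was called in sO-L1 against ASO-Ctr, in edgeR with all 12 libraries. The other 8 listed genes of the RNA polymerase I machinery included 5 that rose, 0 that fell and 3 that did not pass, and subunits common to all nuclear polymerases were not analysed here. Of its subunits, ZNRD1 (POLR1H) had a log2 fold change of 0.43 (adjusted p 0.000274), CD3EAP (POLR1G) 0.22 (adjusted p 0.0238) and TWISTNB (POLR1F) 0.18 (adjusted p 0.036). Of the selectivity factor SL1, TAF1A (0.45, adjusted p 0.000326) and TAF1D (0.31, adjusted p 0.00265) rose, while TAF1B (-0.09) and TAF1C (0.13) did not pass, nor did the termination factor TTF1. NCL, the abundant nucleolin, had 0.08 (adjusted p 0.0437), and DKC1, the pseudouridine synthase of the H/ACA particles, 0.27 (adjusted p 3.26e-05).

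Among the further ribosome assembly genes that rose, the smallest adjusted p were those of WBSCR22, a methyltransferase of the small subunit RNA, with 0.47 (adjusted p 2.78e-07), SBDS, which frees the large subunit of its last assembly factor, with 0.56 (adjusted p 1.74e-06), and NGDN, a processome factor, with 0.48 (adjusted p 1.93e-06). Those with the smallest among genes that fell were MDN1, a giant ATPase that strips factors from the large subunit, which had 421, 484, 404 and 495 CPM in ASO-L1 and 623, 719.8, 664 and 637 CPM in ASO-Ctr (log2 fold change -0.55, adjusted p 6.37e-07), and RIOK2, a kinase of the late small subunit, which had 40.1, 48.1, 49.8 and 58.5 CPM in ASO-L1 and 74.5, 72.99, 76.3 and 82.7 CPM in ASO-Ctr (-0.65, adjusted p 6.71e-07). Of the 11 listed RNA polymerase III genes 5 rose, 3 fell and 3 did not pass against ASO-Ctr, beside 21.2% higher and 23.1% lower of all genes.

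The list of 8 regulators of growth and the cell cycle held 5 that rose, 2 that fell and 1 that did not pass in ASO-L1 against ASO-Ctr. Over all genes 21.2% were called higher and 23.1% lower. CDKN1A, MDM2, RPL5, RPL11 and MYC rose, MYCN fell and MAX did not pass, and 1 that fell is not reported here. CDKN1A, an inhibitor of cyclin-dependent kinases, had 48.7, 31.7, 24.9 and 15.8 CPM in ASO-L1, 11.3, 5.16, 4.14 and 5.30 CPM in sO-L1 and 10.6, 4.36, 4.15 and 4.40 CPM in ASO-Ctr. The CDKN1A level was highest in replicate 1 of every group, and no ASO-L1 library overlapped another group. Its log2 fold change of 2.39 against ASO-Ctr (adjusted p 4.32e-09) was larger in size than that of any member, and it was 2.24 against sO-L1 (adjusted p 6.38e-09). MDM2, a ubiquitin ligase, had 258, 167, 159 and 127 CPM in ASO-L1, 89.1, 85.1, 87.96 and 90.4 CPM in sO-L1 and 84.2, 85.5, 90.8 and 82.7 CPM in ASO-Ctr, a log2 fold change of 1.02 against ASO-Ctr (adjusted p 2.76e-06). The ribosomal protein genes RPL5 and RPL11 had log2 fold changes of 0.22 (adjusted p 0.000284) and 0.20 (adjusted p 0.000567), MYCN had a log2 fold change of -0.14 (adjusted p 0.0302) and MAX of 0.05 (adjusted p 0.513). MYC, a transcription factor that raises many ribosome assembly genes, had 78.4, 82.9, 113 and 104 CPM in ASO-L1 and 62.6, 73.5, 97.8 and 98.1 CPM in ASO-Ctr. The MYC groups overlapped, with replicates 1 and 2 below replicates 3 and 4 in both, and the log2 fold change within replicate numbers was 0.20 (adjusted p 0.00313).

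Of the 4 members that fell, UTP20 and NOL10 are among the 3 longest genes of the set. By the RefSeq annotation (GRCh38.p14), UTP20 spans 107 kb, NOL10 119 kb, HEATR1 55.5 kb and DDX21 28.9 kb. Of the 3 members longer than 100 kb, UTP20 and NOL10 fell, 0 rose, and DDX10 (276 kb) did not pass (log2 fold change -0.11, adjusted p 0.118). Of all 2707 tested genes longer than 100 kb, 9.24% were called higher and 47.7% lower in ASO-L1 against ASO-Ctr. In the range of 20 to 50 kb, 18 of 25 members rose and 1 fell, while 25.4% of all genes there were higher and 22.1% lower. Below 10 kb, 6 of 10 members rose and 0 fell, beside 27.5% higher and 13.2% lower of all genes. Across the 55 members the correlation between span and log2 fold change was -0.34 by Pearson's r and 0.00 by Spearman's rho, and across 13891 genes it was -0.26 and -0.27. These are descriptions across genes of the same 12 libraries, which are not independent points. The part of gene length in the differences was not tested.

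**Figure D4:**
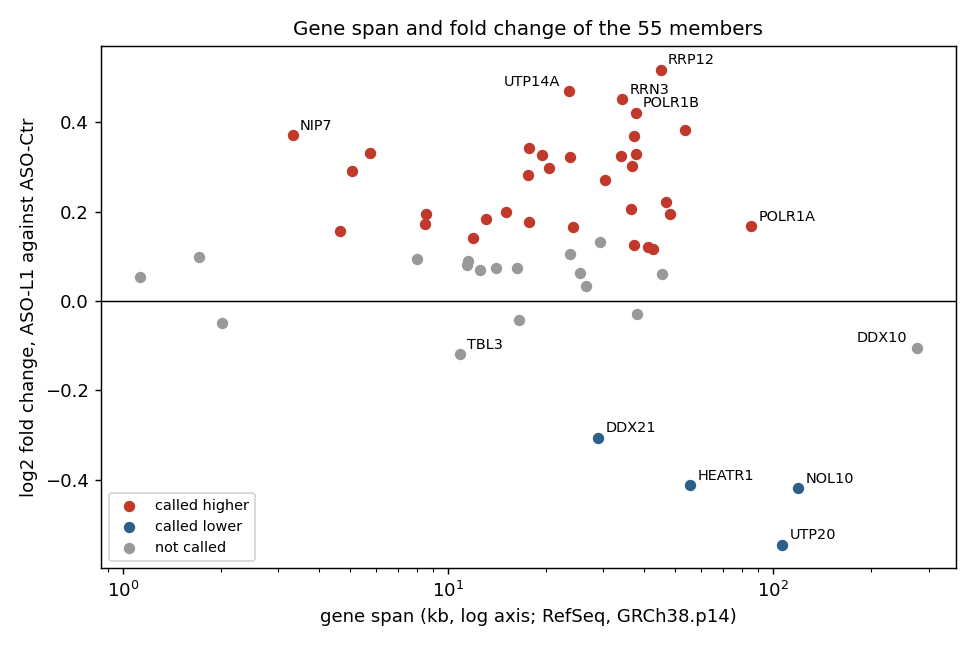
Gene span (kb, log axis) against the log2 fold change in ASO-L1 over ASO-Ctr for the 55 members, coloured by call. The 3 members to the right of 100 kb lie below 0, while members that rose lie between 3.34 and 85.7 kb.

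Some members share sequence with other genes. The pseudogene RRN3P1 had 9.71 ± 1.24 CPM in ASO-L1, 6.11 ± 1.55 CPM in sO-L1 and 6.06 ± 0.824 CPM in ASO-Ctr (SD, n = 4 each) and also rose against ASO-Ctr (log2 fold change 0.68, adjusted p 0.000844). RRN3P3 and RRN3P2 did not pass (adjusted p 0.440 and 0.740). Reads that fit both RRN3 and a copy could have been counted for either, so the RRN3 level is uncertain to that extent. NPM1 has many pseudogenes, each with few reads in the table. NOP14 overlaps the antisense gene NOP14-AS1, whose log2 fold change was 0.16 (adjusted p 0.131), and reads of the pair can be told apart only if strand was used in counting, which the sources used here do not state.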

How the data were processed

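Stranded poly(A) libraries of 12 samples were counted per gene. The deposited counts are raw, with duplicate reads removed per the labels, and the submitters' processing notes name Trim Galore 0.4.0, TopHat2 2.0.13, featureCounts of Subread 1.5.0 and hg19. Removing duplicates can lower counts of abundant genes more than of rare ones, so differences of genes such as NPM1 may be compressed. Counts with duplicates kept were not compared, so this was not tested. The gene annotation, strand setting and handling of multiply mapped reads are not given in the sources used here. The authors also deposited log2 values, normalized and batch-corrected per the labels, and a table with p-values of their own for ASO-L1 against sO-L1.

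The count model was fitted to all 12 libraries with edgeR 4.0.16 under R 4.3.3, using TMM scaling, filterByExpr with a minimum count of 10, and two-sided quasi-likelihood F-tests. Its terms were the group and, as a block, the replicate number. It kept 17264 genes, all 55 members among them. A gene was called under an adjusted p of 0.05 (Benjamini-Hochberg over the genes kept). The block was used because the labels number replicates alike in all groups and name a batch-corrected table. Deviations from the group means were compared in the 10549 genes whose mean count reached 200. They correlated at r = 0.216 to 0.725 in each of 12 same-numbered pairs, against a median of -0.22 for different numbers. Taking deviations from group means makes the second value negative when the first are positive, so it adds no separate evidence. Levels are TMM-scaled CPM, differences within a replicate number use log2 CPM with a prior count of 2, and nominal 95% intervals use a normal approximation. Alternatives were no block, RLE, upper quartile or no scaling, no filter, DESeq2 1.42.0, a fit on the compared groups only, limma 3.58.1 on the deposited log2 table, and leaving out replicate numbers or libraries. The scripts were tested on simulated data, and 0 pairs of libraries were identical.

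Members, role classes, other gene lists and markers were chosen with earlier results of these data known, so counts over them describe the lists and no list was tested. Values are given, per class and comparison, for the 3 members called higher with the smallest adjusted p and all called lower, for the RNA polymerase I genes, NPM1 and the box C/D proteins, and for 12 further pathway genes; 1 more that the rule takes is not reported here. Other genes were named after their values were seen.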

Additional observations from a re-analysis of the deposited data

Results flagged for a closer look

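In 6 of the 165 groups of 4 libraries (55 members in 3 groups), 1 library lay so far from the other 3 that it passed Dixon's 95% limit, which chance gives in about 1 in 20 groups (8.25 here). The sO-L1 replicate 1 library was lowest in 3 of them: MYBBP1A at 120.3 CPM against 140.3 to 142 in the others, POLR1E at 33.2 CPM against 35.9 to 36.2, and TCOF1 at 280.5 CPM against 307 to 311. In sO-L1 replicate 2, NOP16 had 39.8 CPM against 45.9 to 46.8. In ASO-Ctr, UTP20 had 132 CPM in replicate 1 against 162 to 168, and IMP4 had 94.3 CPM in replicate 4 against 87.7 to 88.8. None of the 6 lay in an ASO-L1 library. UTP20 stayed lower and IMP4 stayed higher in ASO-L1 when any single library or replicate number was left out.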

How the results depend on the processing

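Of the 37 members called in ASO-L1 against ASO-Ctr, 28 (24 higher and 4 lower) kept their call under every alternative and every refit without a library or replicate number, and 32 of 45 did (28 higher and 4 lower) against sO-L1. The 9 others against ASO-Ctr were POLR1E, TCOF1, FBL, RRP9, NAT10, BYSL, NOB1, WDR12 and NOP16. Those against sO-L1 were NPM1, NOLC1, FBL, RRP9, NOP14, NOC4L, NAT10, BYSL, BOP1, WDR12, NOP2, NOP16 and NOC3L. Under 0 alternatives was a direction reversed. Refits without a replicate number or a library gave 24 to 42 members higher and 4 to 5 lower against ASO-Ctr, and 30 to 42 higher and 4 lower against sO-L1. With no replicate block, 28 rose and 4 fell against ASO-Ctr, 34 rose and 4 fell against sO-L1, and 0 and 0 were called in sO-L1 against ASO-Ctr. Calls lost without the block were TCOF1 (adjusted p 0.0627), FBL (0.0563), NAT10 (0.0757), WDR12 (0.0683) and NOP16 (0.120) against ASO-Ctr, and NPM1 (0.170), NOLC1 (0.0748), NOP14 (0.176), NOC4L (0.0685), BOP1 (0.0640), NOP2 (0.0726) and NOP16 (0.0785) against sO-L1, and the block changed no other call from called to not called. The fit on only the compared groups called 1 member higher and 4 lower in sO-L1 against ASO-Ctr, where the fit on all libraries called 0 and 0, and the cause was not tested. Scaling moved the median of all genes by at most 0.01 (log2). For sO-L1 against ASO-Ctr the number of all genes called was 12 higher and 38 lower on all libraries, 2 and 15 without the block, 46 and 95 without the filter, 25 and 62 with DESeq2, 53 and 84 with limma, and 263 and 377 on the compared groups only. BOP1 had the fewest reads of the members. The smallest rise called was 1.08-fold against ASO-Ctr (TCOF1) and against sO-L1 (NPM1). For NPM1 (2461 ± 160 CPM in ASO-L1, 2284 ± 116 CPM in sO-L1, SD) that is close to the spread between replicates. For TCOF1 (352 ± 7.40 CPM in ASO-L1, 325 ± 8.97 CPM in ASO-Ctr, SD) the groups did not overlap.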
